A study of Mus musculus with 8 samples.

Results

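Lag3 lies in a gene-dense stretch of mouse chromosome 6, and it was examined here together with 5 genes close to it: Ptms, Mlf2, Cd4, Gpr162 and Cops7a. Lag3 was picked because it stood higher in prefrontal cortex of mice given romidepsin, and the other 5 because of where they lie. The question was whether Lag3 stood apart from its neighbours. The 6 genes were matched by symbol among the 24420 genes counted in all libraries, and all 6 were among the 14809 genes left after genes with low counts were removed.

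RNA was measured in 3 groups of young male mice aged 5 to 6 weeks. The romidepsin group (2 libraries) carried 1 copy of Shank3 lacking exon 21 and received romidepsin, an inhibitor of class I histone deacetylases, at 0.25 mg/kg into the peritoneum once daily for 3 days, with tissue taken 1 day after the last dose. The saline group (3 libraries) carried the same deletion and received saline. The wild-type group (3 libraries) comprised littermates for which the labels name no treatment, so that saline treatment and genotype cannot be told apart between these groups. The protein made from Shank3 organises the postsynaptic side of excitatory synapses. Whether the libraries of a group stem from different animals is not stated in the labels, so the spread behind each p-value may be technical.

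LAG3 is an inhibitory receptor of activated T cells, built of immunoglobulin-like domains and related to CD4, and it binds major histocompatibility complex (MHC) class II molecules on other cells. The genes around it have unrelated roles: Ptms encodes parathymosin, a small acidic nuclear protein related to prothymosin alpha, Mlf2 encodes myeloid leukemia factor 2, Gpr162 encodes an orphan receptor of the G protein-coupled type, and Cops7a encodes a subunit of the COP9 signalosome, which removes the ubiquitin-like protein NEDD8 from cullin ubiquitin ligases. CD4 is the co-receptor of helper T cells.

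In the RefSeq annotation of GRCm38, Lag3 spans chr6:124904359-124912434 on the minus strand. Ptms follows 1.24 kb away at chr6:124913675-124917946, on the same strand and upstream of Lag3. Mlf2 (chr6:124931388-124936149, plus strand) lies 19.0 kb from Lag3 on that side and Cops7a (chr6:124958445-124997903, minus strand) 46.0 kb. On the other side, Cd4 (chr6:124864693-124888247, minus strand) lies 16.1 kb away and Gpr162 (chr6:124858444-124864195, minus strand) 40.2 kb. In GENCODE M21, 0% of the exonic bases of each of the 6 genes were shared with an exon of another gene. The annotation used for the counting is not given, so overlap in it was not checked. In RefSeq, the span of Cops7a overlaps that of Pianp (chr6:124996720-125003096, plus strand).

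The promoter windows of Ptms and Mlf2 are shown because these are the protein-coding genes nearest to Lag3 on its upstream side. They are RefSeq windows on GRCm38.p6 from 250 bases before to 50 bases after the gene start, at chr6:124917897-124918196 (minus strand) for Ptms and chr6:124931138-124931437 (plus strand) for Mlf2. Capitals mark each match to the GC box GGGCGG or its reverse complement CCGCCC.
Ptms: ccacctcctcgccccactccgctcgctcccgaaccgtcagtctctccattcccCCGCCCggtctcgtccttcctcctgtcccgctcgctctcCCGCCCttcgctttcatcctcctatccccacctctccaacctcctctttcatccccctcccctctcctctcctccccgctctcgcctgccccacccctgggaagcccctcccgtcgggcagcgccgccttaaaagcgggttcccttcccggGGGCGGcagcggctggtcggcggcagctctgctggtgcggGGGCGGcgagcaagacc
Mlf2: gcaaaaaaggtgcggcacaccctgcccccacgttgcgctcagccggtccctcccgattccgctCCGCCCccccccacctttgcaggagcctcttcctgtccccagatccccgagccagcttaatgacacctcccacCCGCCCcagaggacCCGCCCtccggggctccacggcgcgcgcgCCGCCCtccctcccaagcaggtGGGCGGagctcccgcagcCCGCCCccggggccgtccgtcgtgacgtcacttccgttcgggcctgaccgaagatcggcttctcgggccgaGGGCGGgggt
The window of Ptms held 4 matches and 27 CpG dinucleotides, and that of Mlf2 held 7 matches and 32 CpG dinucleotides. The 2 windows listed for Cops7a held 1 and 3 matches, with 33 and 37 CpG dinucleotides. Of all 32851 promoter windows, 35.7% held at least 1 match, and the median number of CpG dinucleotides was 7. Windows of 3 of the 6 genes were matched in the table, and those of Lag3, Cd4 and Gpr162 were not analysed here.

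The libraries held between 7783538 and 15156318 counts assigned to genes. Shank3 averaged 314 ± 1.86 CPM (counts per 1000000 counts of the scaled library) in the romidepsin group (SD, n = 2), 290 ± 33.7 CPM in the saline group (n = 3) and 319 ± 26.1 CPM in wild type (n = 3). These whole-gene counts include the remaining exons of the deleted copy and do not check the genotype. The labels name the cell type as neurons, but the tissue was cortical slices and glial transcripts were abundant: 20 microglia markers summed to 696 to 966 CPM per library, and 10 oligodendrocyte markers to 3010 to 5489 CPM. In bulk tissue, more cells of a type and more RNA per cell cannot be told apart.

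Lag3 and Cd4 were lowly expressed, while the other neighbours were abundant. Per kilobase of exon, the level was 206 to 255 CPM for Ptms across the 8 libraries, 87.3 to 103 CPM for Mlf2, 52.7 to 61.3 CPM for Gpr162 and 40.4 to 51.8 CPM for Cops7a. Lag3 stood at 3.00 to 8.55 CPM per kilobase, and Cd4 at 0.065 to 0.342 CPM per kilobase. These ranges did not overlap, so the order of the 6 genes was the same in every library; Gpr162 and Cops7a were closest to each other. The exon lengths are unions over all GENCODE transcripts, which makes the levels per length approximate.

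Lag3 stood at about the same level in saline and wild-type libraries and higher in both romidepsin libraries. Its read counts were 183 and 143 in romidepsin replicates 1 and 2, against 139, 68 and 58 in saline replicates 1, 2 and 3. The wild-type replicates had 75, 95 and 100 reads. Scaled to library size, Lag3 had 18.0 and 14.7 CPM in the romidepsin samples, 9.11, 7.13 and 7.44 CPM in the saline samples, and 6.32, 7.16 and 7.84 CPM in the wild-type libraries. Both romidepsin libraries lay above all 6 others, while saline and wild-type libraries overlapped. The exact Poisson 95% interval of the lower romidepsin library was 12.4 to 17.3 CPM and that of the highest saline library 7.66 to 10.8 CPM, which covers counting error only.

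**Figure D1:**
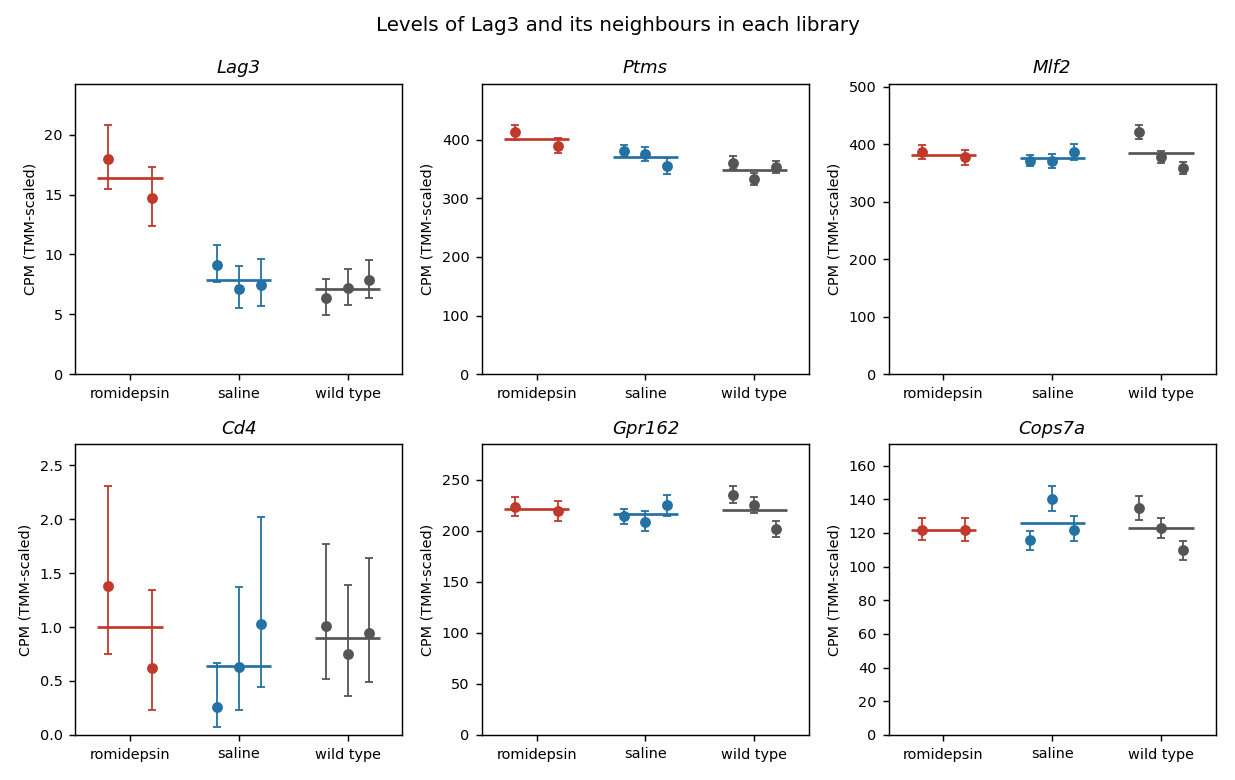
Level of each of the 6 genes in CPM (vertical axes, each starting at 0) by group. Points are libraries, vertical bars are exact Poisson 95% intervals of the read count and horizontal lines are group means; the 2 romidepsin libraries of Lag3, at 18.0 and 14.7 CPM, lie above all others, while Mlf2, Cd4, Gpr162 and Cops7a overlap between the groups.

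The Lag3 mean was 16.4 ± 2.34 CPM in the romidepsin group (SD, n = 2), 7.89 ± 1.07 CPM in the saline group (n = 3) and 7.10 ± 0.762 CPM in wild type (n = 3). The romidepsin group was at 2.05-fold of the saline group (95% interval 1.58 to 2.67; log2 fold change 1.04, SE 0.18). Because Lag3 was picked on this difference, the values describe it and no p is given for it. Against wild type, the romidepsin group was at 2.30-fold (95% interval 1.77 to 2.99), a value that uses the same romidepsin libraries. For saline over wild type the fold was 1.12 (95% interval 0.872 to 1.44). Among all 14809 genes, 35, Lag3 included, had a log2 fold change at least as large between romidepsin and saline. Of the 10468 genes at or above the mean level of Lag3, 3 did, Lag3 included. These ranks only describe Lag3, which was picked on this difference and itself set the cut-off on level.

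No gene passed between romidepsin and saline in edgeR's quasi-likelihood test at an adjusted p under 0.05, a background of 0% of genes. Without adjustment, 483 genes had a p under 0.05. As alternatives, limma-voom called 0 genes and DESeq2 called 2. The log2 fold change of Lag3 was between 0.88 and 1.18 when each of the 8 libraries was left out in turn. Leaving out romidepsin replicate 1 or saline replicate 1 made 3 genes pass in each case.

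Ptms, the nearest gene, was slightly higher in the romidepsin libraries and did not pass. It had 413 and 390 CPM in the romidepsin samples, 381, 376 and 355 CPM in the saline samples, and 361, 333 and 353 CPM in the wild-type libraries. Both romidepsin libraries lay above all others. Without overlap and higher under romidepsin were 10.8% of all genes against saline and 9.34% against wild type (lower, 10.2% and 9.08%). Of the 5 neighbours, 1 (Ptms) did so in each of these comparisons. Lag3 did so too, but it was picked for standing higher under romidepsin. The fold between romidepsin and saline was 1.08 (95% interval 0.962 to 1.22; log2 fold change 0.11, SE 0.08; edgeR adjusted p = 1.00). Against wild type, the romidepsin group was at 1.15-fold (95% interval 1.02 to 1.30), with an unadjusted p of 0.0232 and an edgeR adjusted p of 0.999. For saline over wild type the fold was 1.06 (95% interval 0.956 to 1.18; edgeR adjusted p = 0.780).

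Mlf2, the next protein-coding gene beyond Ptms, did not separate the groups. It had 386 and 377 CPM in the romidepsin samples, 371, 371 and 386 CPM in the saline samples, and 421, 377 and 358 CPM in the wild-type libraries. The wild-type libraries alone spanned both other groups. Romidepsin stood at 1.01-fold of saline (95% interval 0.894 to 1.15; edgeR adjusted p = 1.00), and saline at 0.975-fold of wild type (95% interval 0.870 to 1.09; edgeR adjusted p = 0.927).

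Cops7a, farther out on that side, did not separate the groups either. It had 122 and 122 CPM in the romidepsin samples, 116, 140 and 122 CPM in the saline samples, and 135, 123 and 110 CPM in the wild-type libraries. All groups overlapped. Romidepsin stood at 0.968-fold of saline (95% interval 0.831 to 1.13; edgeR adjusted p = 1.00), and saline at 1.03-fold of wild type (95% interval 0.898 to 1.18; edgeR adjusted p = 0.932).

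Gpr162, on the other side of Lag3, did not separate the groups. It had 223 and 219 CPM in the romidepsin samples, 214, 209 and 225 CPM in the saline samples, and 235, 225 and 202 CPM in the wild-type libraries. The groups overlapped. Romidepsin stood at 1.03-fold of saline (95% interval 0.905 to 1.16; edgeR adjusted p = 1.00), and saline at 0.977-fold of wild type (95% interval 0.874 to 1.09; edgeR adjusted p = 0.933).

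Cd4, the gene related to Lag3, was barely detected. It had 14 and 6 reads in the romidepsin samples, 4, 6 and 8 reads in the saline libraries, and 12, 10 and 12 reads in the wild-type libraries. The groups overlapped, and romidepsin replicate 1 was highest. The means were 0.998 ± 0.539 CPM (n = 2) in the romidepsin group, 0.639 ± 0.382 CPM (n = 3) in the saline group and 0.902 ± 0.133 CPM (n = 3) in wild type. Romidepsin stood at 1.74-fold of saline with a 95% interval of 0.705 to 4.28 (log2 fold change 0.80, SE 0.61; edgeR adjusted p = 1.00). With 1 library left out the log2 fold change was 0.09 to 1.26: it was 0.09 without romidepsin replicate 1 and 0.30 without saline replicate 1, but 1.26 without saline replicate 3 and 1.24 without romidepsin replicate 2, where Lag3 had 0.99 and 1.18. A difference of the size seen for Lag3 was not detectable at this depth.

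Of the 5 neighbours, 0 passed in each of the 3 comparisons, against a background of 0% of all genes between romidepsin and saline, and 0.00675% (1 gene) both between saline and wild type and between romidepsin and wild type. These counts are near the background. The upper bounds of the 95% intervals between romidepsin and saline were 1.22-fold for Ptms, 1.15-fold for Mlf2, 1.16-fold for Gpr162 and 1.13-fold for Cops7a, and 4.28-fold for Cd4. Whether Lag3 differed from them was not tested, because Lag3 was picked on this contrast. Since the 3 comparisons share libraries, their values are not independent of each other.

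**Figure D2:**
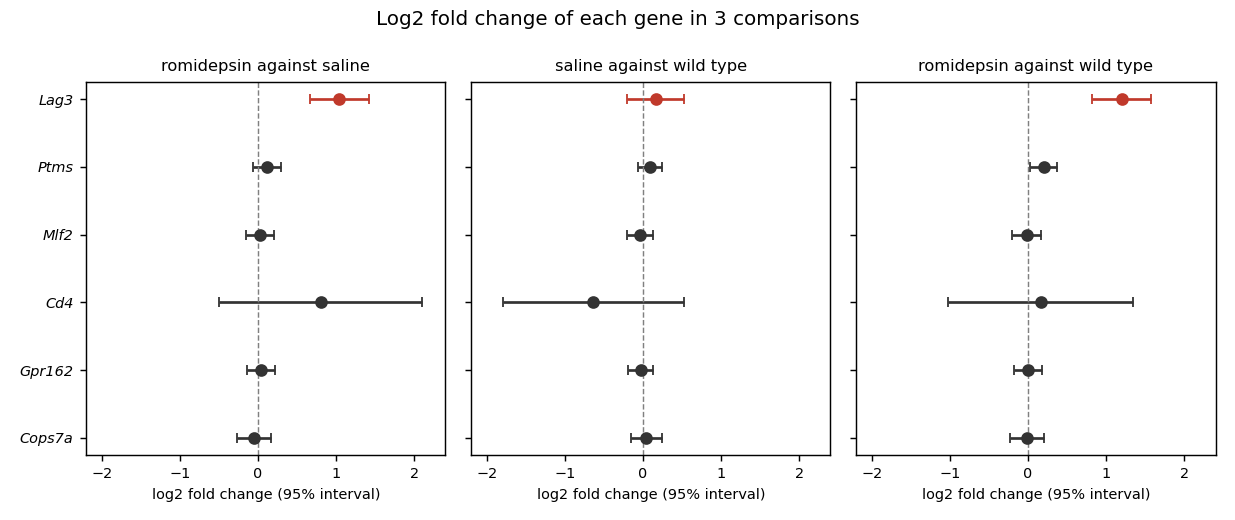
Log2 fold change (horizontal axes) of each gene in romidepsin against saline, saline against wild type, and romidepsin against wild type, with 95% intervals from the edgeR fit as bars. Lag3, at 1.04 and 1.20, lies apart from 0 in the 2 comparisons that use the romidepsin libraries; the interval of Cd4 is the widest in each panel.

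Ratios of reads within a library do not depend on scaling between libraries. Per 1000 reads of Ptms there were 43.7 and 37.7 reads of Lag3 in the romidepsin samples, 23.9, 19.0 and 20.9 in the saline samples, and 17.5, 21.5 and 22.2 in the wild-type libraries. Per 1000 reads of the 5 neighbours together, there were 15.7 and 13.3 reads of Lag3 in the romidepsin samples, 8.42, 6.50 and 6.83 in the saline samples, and 5.48, 6.75 and 7.66 in the wild-type libraries. The romidepsin libraries were the 2 highest by either ratio. Cd4 adds at most 1.38 CPM to that sum in any library. Per 1000 reads of Cd4 alone, saline replicate 1 was highest, at 34750 reads of Lag3 on 4 reads of Cd4. The romidepsin libraries had 13071 and 23833, and the remaining libraries 6250 to 11333. The neighbours together stood at 1146 and 1108 CPM in the romidepsin samples, 1082, 1097 and 1089 CPM in the saline samples, and 1153, 1059 and 1024 CPM in the wild-type libraries, with both romidepsin libraries above all saline libraries, and romidepsin and wild type overlapping. Since Lag3 chose the set, these ratios are a description.

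**Figure D3:**
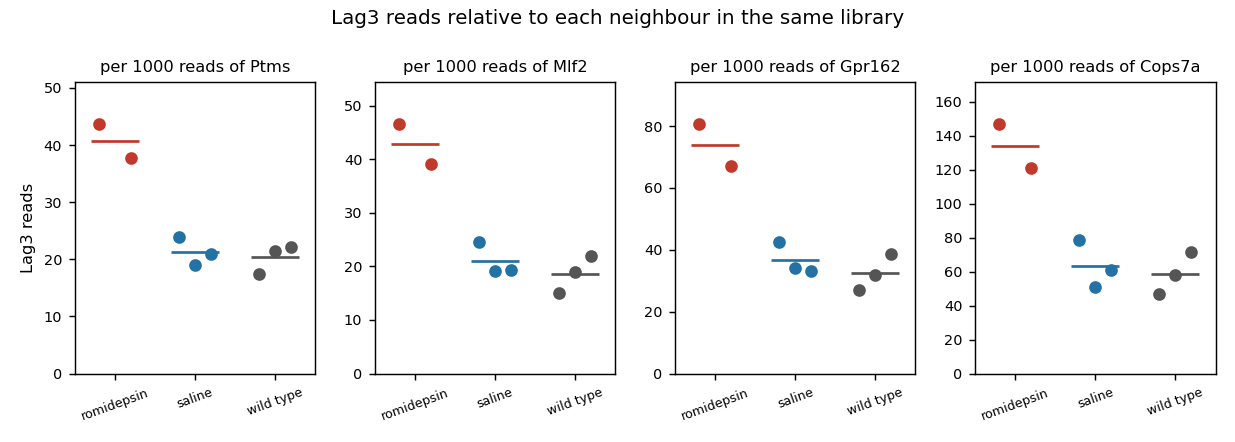
Reads of Lag3 per 1000 reads of Ptms, Mlf2, Gpr162 or Cops7a in the same library (vertical axes, each starting at 0), by group. Cd4, with few reads, is not drawn. Points are libraries and lines are group means; for Ptms the romidepsin libraries are at 43.7 and 37.7 and no other library exceeds 23.9.

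Within 500 kb of Lag3, 39 other genes were tested of 55 in the count tables. Their log2 fold changes had a median of 0.037, with 25 higher and 14 lower, beside a median of -0.003 over all genes. The range was -0.95 (Cdca3, a cell division gene) to 0.80 (Cd4), both genes with few reads; with 1 library left out, Cdca3 reached -1.31 and Cd4 1.26. In edgeR 0 of the 39 passed and 0 had an unadjusted p under 0.05. In 5 genes the romidepsin libraries lay above all saline libraries and in 1 below, where this held for 10.8% and 10.2% of all genes. Among the 5 was Chd4, 184 kb from Lag3, which encodes the ATPase of the NuRD complex that also holds histone deacetylases; it averaged 184 ± 0.123 CPM (n = 2) in the romidepsin group and 165 ± 4.76 CPM (n = 3) in the saline group (log2 fold change 0.16, SE 0.08; edgeR adjusted p = 1.00). Chd4 was chosen for mention after its values were seen.

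**Figure D4:**
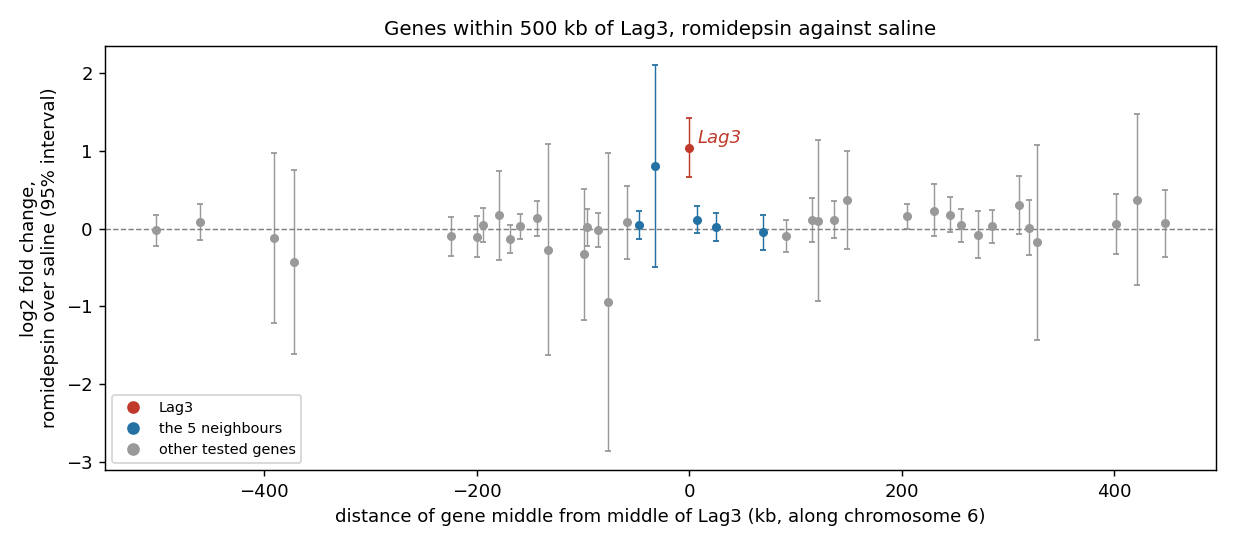
Log2 fold change of romidepsin over saline (vertical axis, bars are 95% intervals) of each tested gene within 500 kb, by the distance in kb of its middle from the middle of Lag3 along chromosome 6. Lag3 is at 1.04; the 39 others lie between -0.95 and 0.80, and the wide bars belong to genes with few reads.

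Within 100 kb, 13 other genes were tested, and Gnb3, with at most 2 reads in a library, was not. Beside the 5 neighbours these were 8 genes with various roles. Tpi1, which encodes the glycolytic enzyme triosephosphate isomerase, averaged 637 ± 22.9 CPM (n = 2) under romidepsin and 629 ± 40.2 CPM (n = 3) under saline. Usp5, a deubiquitinase gene, averaged 200 ± 0.879 CPM (n = 2) under romidepsin and 203 ± 7.77 CPM (n = 3) under saline. Pianp, a neuronal membrane protein gene, averaged 153 ± 8.55 and 163 ± 16.4 CPM in the romidepsin and saline groups, and the zinc finger gene Zfp384 37.4 ± 3.47 and 34.7 ± 4.52 CPM. P3h3, a collagen prolyl hydroxylase gene, averaged 17.3 ± 0.176 and 16.2 ± 4.89 CPM, Spsb2, a ubiquitin ligase adaptor gene, 1.82 ± 0.483 and 2.29 ± 0.647 CPM, Cdca3 0.302 ± 0.00931 and 0.629 ± 0.481 CPM, and the noncoding gene 4930557K07Rik 1.37 ± 0.968 and 1.24 ± 0.284 CPM. None of these 8 passed (edgeR adjusted p = 1.00 for each).

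Between saline and wild type, 2 of the 13 had an unadjusted p under 0.05, as did 1242 of all 14809 genes. P3h3 averaged 16.2 ± 4.89 CPM in the saline group and 23.2 ± 3.48 CPM in wild type (log2 fold change -0.51, SE 0.19; edgeR adjusted p = 0.465). Zfp384 averaged 34.7 ± 4.52 CPM in the saline group and 41.7 ± 4.70 CPM in wild type (log2 fold change -0.26, SE 0.11; edgeR adjusted p = 0.557). Neither gene passed. In both, no saline library reached the lowest wild-type one, a pattern found in 6.36% of all genes; the opposite pattern was found in 6.26%. None of the 6 genes, Lag3 included, separated saline from wild type.

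The genes whose levels followed Lag3 most closely over the 8 libraries were spread over other chromosomes. Likeness was measured as Pearson's r of log2 CPM among 12556 named genes. The 5 nearest were Vmn1r65 of the vomeronasal receptor family (chromosome 7, r = 0.947), the alpha-tubulin gene Tuba1b (chromosome 15, r = 0.914), the iron-sulfur cluster assembly gene Nubp1 (chromosome 16, r = 0.913), the cholesterol synthesis gene Cyp51 (chromosome 5, r = 0.910) and the RNA-binding protein gene Rbm12b2 (chromosome 4, r = 0.908). Their log2 fold changes between romidepsin and saline, from 0.08 for Tuba1b to 0.40 for Vmn1r65, were all smaller than the 1.04 of Lag3. In all 5, as in Lag3, both romidepsin libraries lay above all others, a pattern that choosing genes by their likeness to Lag3 favours. Of all genes, 10.8% had both romidepsin libraries above all saline libraries, and 9.34% above all wild-type libraries. Lag3 was picked for standing higher under romidepsin, so this likeness is a description. Vmn1r65 rested on 26 and 23 reads in the romidepsin libraries and 30, 16 and 15 reads in the saline libraries. By rank correlation, 1 of these 5 stayed among the nearest 5, so the order depends on the measure. Ptms had r = 0.820, with 41 genes more alike, and the other neighbours had r between -0.269 and 0.141. The rank correlation was 0.619 for Ptms and between -0.643 (Cops7a) and -0.024 (Cd4) for the other neighbours.

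Known partners of LAG3 were mostly present at low levels and none passed. Of the 11 listed genes for MHC class II and other ligands, 8 were tested; between romidepsin and saline 2 were higher and 6 lower. Their median log2 fold change was -0.20, beside -0.003 over all genes. Ciita, the master regulator of MHC class II transcription, averaged 2.63 ± 0.793 CPM (n = 2) in the romidepsin group, 1.37 ± 0.209 CPM (n = 3) in the saline group and 2.94 ± 0.336 CPM (n = 3) in wild type. The saline libraries were below all others, and romidepsin overlapped wild type. The log2 fold change was 0.92 between romidepsin and saline (SE 0.34; edgeR adjusted p = 1.00) and -1.09 between saline and wild type (SE 0.30; edgeR adjusted p = 0.359). Of the MHC genes it controls, H2-Aa averaged 1.05 ± 0.323 and 1.54 ± 0.633 CPM in the romidepsin and saline groups, and Cd74, the invariant chain gene, 2.66 ± 0.416 and 3.93 ± 1.44 CPM. The ligand genes Fgl1 and Clec4g had at most 6 reads and 1 read in a library. Adam10, a protease that sheds LAG3 from the cell surface, averaged 102 ± 4.34 CPM under romidepsin and 107 ± 4.89 CPM under saline, and Adam17, the other, 24.2 ± 2.24 and 23.2 ± 3.50 CPM.

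Other immune checkpoint receptor genes were low in these libraries and none passed. Of 10 listed receptors, 9 were in the tables and 3 were tested, with 1 higher, 2 lower and 0 passed between romidepsin and saline. Havcr2, which encodes TIM-3, averaged 3.51 ± 0.888 CPM in the romidepsin group and 3.83 ± 0.255 CPM in the saline group, Btla 0.504 ± 0.0155 and 0.775 ± 0.465 CPM, and Cd160 1.20 ± 0.390 and 0.767 ± 0.501 CPM. Pdcd1, which encodes PD-1, had at most 1 read in any library and Ctla4 at most 3. Of the checkpoint ligands 7 were tested, with 2 higher, 5 lower and 0 passed; Pvr averaged 7.33 ± 1.06 CPM in the romidepsin group and 9.59 ± 0.996 CPM in the saline group (edgeR adjusted p = 1.00), Icosl 4.15 ± 1.27 and 3.13 ± 1.40 CPM, and Cd86 3.01 ± 0.619 and 3.60 ± 0.849 CPM.

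In the families of the neighbours and of the drug's targets, 0 genes passed. All 10 COP9 signalosome genes in the tables were tested, Cops7a included, with 1 higher, 9 lower and 0 passed between romidepsin and saline (median log2 fold change -0.04); Cops6 averaged 80.3 ± 5.50 and 87.5 ± 5.57 CPM in the romidepsin and saline groups. Ptma, the prothymosin alpha gene related to Ptms, averaged 229 ± 2.21 CPM in the romidepsin group and 259 ± 14.6 CPM in the saline group, below all saline libraries, while Ptms stood above them (log2 fold change of Ptma -0.18, SE 0.09; edgeR adjusted p = 1.00). Among the drug's target genes, Hdac8 averaged 8.88 ± 1.55 and 11.1 ± 0.691 CPM in the romidepsin and saline groups, Hdac3 72.3 ± 4.75 and 65.8 ± 5.72 CPM, and Hdac1 21.6 ± 2.82 and 24.0 ± 1.34 CPM, with 0 of 4 class I genes passing.

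LAG3 is best known from T cells, and the genes that define these cells had few reads here. The 6 T cell genes Cd3d, Cd3e, Cd3g, Cd8a, Cd8b1 and Cd2 summed to 4 and 3 reads in the romidepsin samples, 8, 4 and 4 in the saline samples, and 5, 8 and 5 in the wild-type libraries. Of the other T cell genes, Cd247 had 69 to 154 reads per library, Foxp3 89 to 200, Lck 7 to 26 and Zap70 6 to 27. The whole list of 18 T cell genes summed to 667 to 689 CPM in the romidepsin group, 633 to 719 CPM in the saline group and 593 to 744 CPM in wild type, most of it from Thy1, which neurons also express. Without Thy1 the sums were 26.3 to 28.7 CPM in the romidepsin group, 24.8 to 28.3 CPM in the saline group and 26.5 to 30.9 CPM in wild type, which overlapped. Of the 18 genes 5 were tested, with 0 passing. Among them Zap70, a T cell receptor kinase gene, averaged 1.71 ± 0.0897 CPM in the romidepsin group, 1.06 ± 0.304 CPM in the saline group and 1.83 ± 0.432 CPM in wild type, with saline below both (edgeR adjusted p = 1.00 for romidepsin against saline). The 5 B cell markers had at most 8 reads in a library, and Pax5 had 0 reads in all 8.

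Microglia make up the resident immune cells of the brain. Their 20 markers summed to 966 and 838 CPM in romidepsin replicates 1 and 2, to 859, 763 and 845 CPM in saline replicates 1 to 3, and to 696, 756 and 955 CPM in wild-type replicates 1 to 3. The groups overlapped, and romidepsin replicate 1 was highest in this sum and in Lag3. Between romidepsin and saline 17 of the 20 were higher and 0 passed, with a median log2 fold change of 0.10; Ctss, a lysosomal protease gene, averaged 80.1 ± 8.49 CPM in the romidepsin group and 65.7 ± 0.772 CPM in the saline group, and Csf1r, the growth factor receptor of microglia, 158 ± 12.6 and 130 ± 15.5 CPM. Markers of border macrophages and dendritic cells summed to 18.0 to 19.5, 13.5 to 24.2 and 17.4 to 25.6 CPM in the romidepsin, saline and wild-type groups.

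Marker sums of 2 neuron classes did not overlap between romidepsin and saline. Among all single genes, 20.9% did not overlap between these groups in either direction, and 18.4% between romidepsin and wild type. The 12 inhibitory neuron markers summed to 1593 and 1572 CPM in the romidepsin libraries. Saline libraries had 1374 to 1503 CPM and wild-type libraries 1389 to 1446 CPM, so both romidepsin sums lay above all others. Of the 12 markers, 9 were higher under romidepsin than saline (median log2 fold change 0.10). Against wild type, 12 of 12 were higher under romidepsin (median 0.17). The 10 excitatory neuron markers summed to 7273 and 7166 CPM in the romidepsin libraries and to 6529 to 6914 CPM in the saline libraries. Wild type, at 6617 to 7187 CPM, overlapped romidepsin. Most of the excitatory sum came from Camk2a, at 4952 ± 95.5 CPM in the romidepsin group and 4486 ± 298 CPM in the saline group. Of the 10 excitatory markers, 6 were higher and 4 lower under romidepsin than saline (median 0.04). The sums of pan-neuronal markers overlapped, at 6770 to 7036 CPM in the romidepsin group and 6154 to 7227 CPM in the saline group, as did those of astrocytes (5696 to 5969 and 5192 to 6591 CPM), oligodendrocytes (3381 to 3827 and 3010 to 5489 CPM), endothelial and mural cells (306 to 362 and 240 to 323 CPM), meninges (132 to 185 and 113 to 252 CPM) and olfactory bulb (33.5 to 35.1 and 34.9 to 65.9 CPM). Of the endothelial and mural markers 12 of 12 were higher under romidepsin than saline (median log2 fold change 0.26), while 9 of 12 were lower in saline than in wild type (median -0.35), and 5 were higher and 7 lower under romidepsin than in wild type (median -0.06). Of the meningeal markers 10 of 10 were lower under romidepsin than saline (median -0.31), 10 of 10 higher in saline than in wild type (median 0.62) and 10 of 10 higher under romidepsin than in wild type (median 0.29). Flt1, a vascular growth factor receptor gene, averaged 52.4 ± 5.15 CPM in the romidepsin group, 39.3 ± 8.03 CPM in the saline group and 61.8 ± 6.73 CPM in wild type. Thbs2, a matrix protein gene, averaged 6.94 ± 0.0708 CPM in the romidepsin group, 10.5 ± 0.245 CPM in the saline group and 6.88 ± 0.106 CPM in wild type. In each of these lists 0 members passed, and 4 of 5 red blood cell genes had 0 reads. The part of cell composition in the level of Lag3 was not tested.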

How the data were processed

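Poly(A) RNA of prefrontal cortex was sequenced in 8 libraries. The authors deposited raw counts of reads per gene, in a table for each library. Per the submitters' processing notes the tools were bcl2fastq 2.17.1.14, TopHat2 2.1.1 and HTSeq 0.6.1, with mm10/GRCm38; for annotation and strand setting: not given in the sources used here. Entries that name no gene were left out.

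Counts were compared with edgeR 4.0.16 in R 4.3.3: filterByExpr left 14809 of 24420 genes, scaling was by trimmed mean of M values (TMM), and a robust quasi-likelihood model took all 8 libraries, with a term for each group. P-values were adjusted over all genes (Benjamini-Hochberg), with a threshold of 0.05. Intervals are at 95%. CPM and log2 CPM (prior count 2) use TMM-scaled totals. The method was tested on simulated data. Alternatives used DESeq2 1.42.0 and limma 3.58.1 (voom).

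The 6 genes and the lists were chosen with earlier results of these data known. Named genes are the 6, tested genes within 100 kb, the 5 most like Lag3, up to 3 per list with the smallest p, and Shank3; other names were chosen after their values were seen.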

Additional observations from a re-analysis of the deposited data

How the results depend on the processing

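Across 16 alternatives, 8 of them leaving out 1 library each, the log2 fold change of Lag3 between romidepsin and saline was 0.88 to 1.18. For the 5 neighbours, 0 of 255 adjusted p-values (5 genes, 3 comparisons, the reported setting and 16 alternatives) were under 0.05, and the smallest was 0.617.

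Genes passing between romidepsin and saline numbered 2 with DESeq2 and 0 to 3 with 1 library left out. Between saline and wild type they numbered 12 without the filter, 31 with DESeq2, 2 with only the 2 groups fitted, and 1 to 54 with 1 library left out (54 without wild-type replicate 3, 9 without saline replicate 1). Between romidepsin and wild type they numbered 0 without TMM factors, 2 without the filter, 4 with DESeq2 and 0 to 3 with 1 library left out. Deviations of same-numbered libraries from their group means correlated between -0.175 and 0.103, and those of other pairs between -0.156 and 0.236. This check cannot decide whether replicate numbers pair the libraries, because groups held only 2 or 3 of them. With the replicate number as a block, 4 genes passed between saline and wild type and 0 between romidepsin and wild type.

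Small differences changed sign. Gpr162 between romidepsin and wild type was at -0.01 both without TMM factors and with the block, and -0.06 to 0.05 with 1 library left out. Between romidepsin and saline, Tpi1 was at -0.05 with the block and -0.02 to 0.07 with 1 library left out, and 4930557K07Rik at -0.08 with limma-voom and -0.87 to 0.70. With 1 library left out, that comparison gave -0.11 to 0.04 for Cops7a, -0.05 to 0.01 for Usp5 and -0.14 to 0.24 for P3h3. Saline against wild type gave -0.09 to 0.03 for Mlf2, -0.10 to 0.01 for Gpr162 and -0.04 to 0.11 for Cops7a. Romidepsin against wild type gave -0.07 to 0.05 for Mlf2, -0.53 to 0.61 for Cd4 and -0.09 to 0.07 for Cops7a. Among the 5 genes most like Lag3, 1 remained by rank correlation and 5 with a prior count of 0.5. The median within 100 and 250 kb was 0.021 and 0.040. The causes were not tested. Of the 6 genes, Cd4 has the fewest reads, at 4 to 14 per library.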
